A study of Homo sapiens with 6 samples.

Results

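The troponin loci examined here are the chromosome stretches that hold TNNT2, TNNI1, TNNI3 and TNNC1, which encode the cardiac and slow muscle troponins. Their accessible sites were the peaks with a midpoint on hg19 between 201.31 and 201.365 Mb of chromosome 1 for TNNT2, between 201.365 and 201.42 Mb of chromosome 1 for TNNI1, between 55.64 and 55.69 Mb of chromosome 19 for TNNI3, and between 52.46 and 52.51 Mb of chromosome 3 for TNNC1. Peaks sharing 1 bp or more, from any library, were joined into sites, which gave 63 troponin sites among 157560 sites in all. The TNNT2 window held 20 of them, the TNNI1 window 16, the TNNI3 window 11 and the TNNC1 window 16. The assay was ATAC-seq, which reads out open chromatin through the insertions of a transposase. The cells were ventricular-like cardiomyocytes at day 15 of differentiation from H9, a human embryonic stem cell line. ZNF436, a zinc finger protein of the KRAB family, was knocked down in 3 libraries, and 3 were controls, each library from its own differentiation of this one line according to the labels. The labels name neither the agent of the knockdown nor what the control cultures received, the level of ZNF436 was not analysed here, and these lists hold no expression values against which to check the cell type.

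Troponin is the calcium switch of the thin filament. Troponin T anchors the complex to tropomyosin, troponin I holds actin and myosin apart at rest, and troponin C binds calcium and releases that block. TNNT2 encodes cardiac troponin T and is a common marker of cardiomyocytes. TNNI1 encodes the slow skeletal troponin I, which is also the form of the fetal heart, and TNNI3 the cardiac form that replaces it as the heart matures. TNNC1 encodes the troponin C that the heart shares with slow skeletal muscle. The windows also reach into other genes. In the gene order of RefSeq, LAD1 lies between TNNT2 and TNNI1, TNNT1 (slow skeletal troponin T) and DNAAF3 lie on either side of TNNI3, and SEMA3G and NISCH lie on either side of TNNC1. No annotation of hg19 was used here, so sites are given by position and were not assigned to a promoter, an intron or one of these genes.

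Promoter sequence was at hand for TNNT2 and TNNI3, 2 of the 4 genes, and is shown because both encode the cardiac forms and their windows held the 2 sites with the highest mean score percentile over the 6 lists. The 250 bases before each gene start are printed 5′ to 3′ from RefSeq (GRCh38.p14, minus strand, chr1:201377681-201377930 for TNNT2 and chr19:55157733-55157982 for TNNI3). That build differs from the build of the peaks, so no peak was placed on them. Capitals mark matches to AGATAA, the motif of GATA factors, and to CATTCCT, the M-CAT element bound by TEAD factors, on either strand.
TNNT2: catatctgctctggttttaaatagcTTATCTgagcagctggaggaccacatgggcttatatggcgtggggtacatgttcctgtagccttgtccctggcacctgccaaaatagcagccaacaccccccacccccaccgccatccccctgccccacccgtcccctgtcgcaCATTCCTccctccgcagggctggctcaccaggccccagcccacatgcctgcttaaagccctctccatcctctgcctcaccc
TNNI3: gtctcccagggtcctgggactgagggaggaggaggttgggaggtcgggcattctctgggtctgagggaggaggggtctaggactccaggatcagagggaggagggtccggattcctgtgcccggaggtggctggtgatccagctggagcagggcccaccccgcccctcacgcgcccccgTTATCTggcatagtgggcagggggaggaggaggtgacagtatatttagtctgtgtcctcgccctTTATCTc

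AGATAA matched once before TNNT2, from base 225 upstream of the start, and 2 times before TNNI3, from bases 71 and 7. It occurred in 9.17% of the 35116 promoter sequences of the same length. CATTCCT matched once before TNNT2, from base 81, and 0 times before TNNI3, with a match in 3.9% of all promoters. CANNTG, the E-box, matched 4 times before TNNT2 and 1 time before TNNI3, with a match in 61.8% of all promoters. None of these matches overlapped another. TATAAA, the MEF2 site and the CArG box had no match in either sequence and were found in 10.7, 2.8 and 1.16% of all promoters.

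The depth of the libraries is unknown, because the lists hold peaks and scores but no read counts. The knockdown lists were longer, with 87871 to 115864 peaks against 50719 to 68342 in control, a ratio of group means of 1.773, and their covered bases had a ratio of 1.852. The troponin values are therefore given beside the same measure over the genome, after scaling, and in lists of equal length. In bulk chromatin, more cells with an open site and a more open site in each cell cannot be told apart. With 3 libraries against 3, the exact permutation test cannot give a p below 0.1.

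Peaks were more numerous in the knockdown libraries in the TNNT2, TNNI1 and TNNC1 windows, and there the groups did not overlap, whereas in the TNNI3 window they did. Over all 4 windows, the knockdown libraries (replicates 1, 2 and 3) held 50, 51 and 48 peaks, against 27, 31 and 38 in the control libraries. This is 49.7 ± 1.53 against 32.0 ± 5.57 (SD, n = 3 each), a ratio of 1.552 (exact permutation test, two-sided, p = 0.1). The ratio for the whole lists was 1.773. For single windows, 3 of 4 had every knockdown value above every control value, against 33.4% of the 14406 tiles of 50 kb that had a mean of at least 2 peaks. These tiles were not matched to the windows in number of peaks. The median ratio of peaks over the tiles was 1.625. The share of tiles with a lower ratio was 59.6% for the TNNT2 window, 61.3% for TNNI1, 26.3% for TNNI3 and 28.3% for TNNC1.

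In the TNNT2 window, the knockdown libraries had 17, 15 and 17 peaks and the control libraries 6, 9 and 12, a ratio of 1.815 (exact permutation test, two-sided, p = 0.1). In the TNNI1 window, the knockdown libraries had 12, 14 and 11 peaks and the control libraries 7, 6 and 7, a ratio of 1.85 (exact permutation test, two-sided, p = 0.1). These neighbouring windows on chromosome 1 had ratios close to that of the whole lists. In the TNNI3 window, the knockdown libraries had 9, 10 and 9 peaks and the control libraries 5, 7 and 10, a ratio of 1.273 (exact permutation test, two-sided, p = 0.4). In the TNNC1 window, the knockdown libraries had 12, 12 and 11 peaks and each control library had 9, a ratio of 1.296 (exact permutation test, two-sided, p = 0.1). The tests of peaks and of covered bases in the 4 windows and their sum make 10 comparisons, and the 9 that reached p = 0.1 in the exact permutation test had a Benjamini-Hochberg adjusted p of 0.111.

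The bases covered by peaks separated the groups in all 4 windows, as they did in 76.3% of the 50 kb tiles. In the TNNT2 window, 7708, 7332 and 9739 bases were covered in the knockdown libraries, against 1741, 2673 and 4021 in control, a ratio of 2.938. In the TNNI1 window the values were 6300, 6393 and 4409 bases in knockdown against 2120, 1453 and 3026 in control, a ratio of 2.592. The ratio was 1.728 in the TNNI3 window and 1.861 in the TNNC1 window. The median ratio over the 50 kb tiles was 1.906, with 79.8% of tiles below the TNNT2 window, 73.5% below the TNNI1 window, 47.7% below the TNNC1 window and 40.5% below the TNNI3 window. The windows of cardiac troponin T and slow troponin I thus lay in the upper part of the genome's range and the other 2 near its middle.

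**Figure D1:**
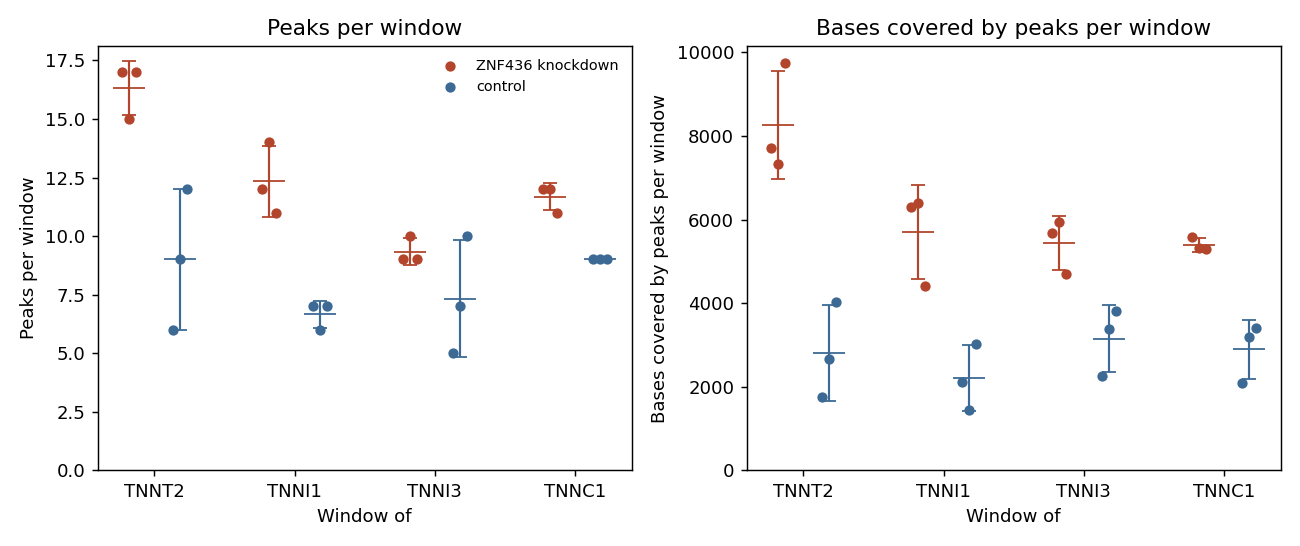
Peaks (left) and bases covered by peaks (right) in each troponin window, one point per library, knockdown left of control, with the mean and SD of 3 libraries. Control overlaps knockdown only for peaks in the TNNI3 window, where a control library had 10 peaks.

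Read as a share of each library's peaks, no window passed the test. In limma fitted to all tiles and the 4 windows together, 0 of the 4 windows passed an adjusted p of 0.05, against 6.54% of the 14410 tiles and windows (0.826% higher and 5.71% lower in knockdown), and 1 of 4, that of TNNC1, had an unadjusted p under 0.05, against 27.6% of the tiles and windows. Shares were taken as log2 of the peaks plus 0.5, divided by the library's total. The change was 0.04 for TNNT2 (SE 0.21, limma adjusted p = 0.911), 0.01 for TNNI1 (SE 0.21, limma adjusted p = 0.982), -0.45 for TNNI3 (SE 0.22, limma adjusted p = 0.185) and -0.47 for TNNC1 (SE 0.20, limma adjusted p = 0.139). The median over all tiles and windows was -0.19, and relative to it the changes were 0.24 for TNNT2, 0.20 for TNNI1, -0.26 for TNNI3 and -0.28 for TNNC1. Without scaling to the library total, TNNT2 (log2 change 0.87, limma adjusted p = 0.036) and TNNI1 (0.84, limma adjusted p = 0.0238) passed.

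The lists were also shortened to the strongest 50719 peaks each, the length of the shortest. The order of the groups then turned in the TNNT2 window, with 4, 3 and 7 peaks in knockdown against 6, 9 and 9 in control (ratio 0.583, exact permutation test, two-sided, p = 0.2). The ratio was also below 1 in the TNNI3 window (ratio 0.9) and the TNNC1 window (0.962), and was 1.1 in the TNNI1 window. Covered bases stayed higher in knockdown in the 4 windows of equal lists, with ratios of 1.654 for TNNT2, 1.829 for TNNI1, 1.406 for TNNI3 and 1.574 for TNNC1, where the equal lists as a whole had 1.384. For TNNT2 the groups of equal lists overlapped in covered bases, with 3456, 2859 and 6666 in knockdown against 1741, 2673 and 3433 in control (exact permutation test, two-sided, p = 0.2), and they overlapped in peaks.

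**Figure D2:**
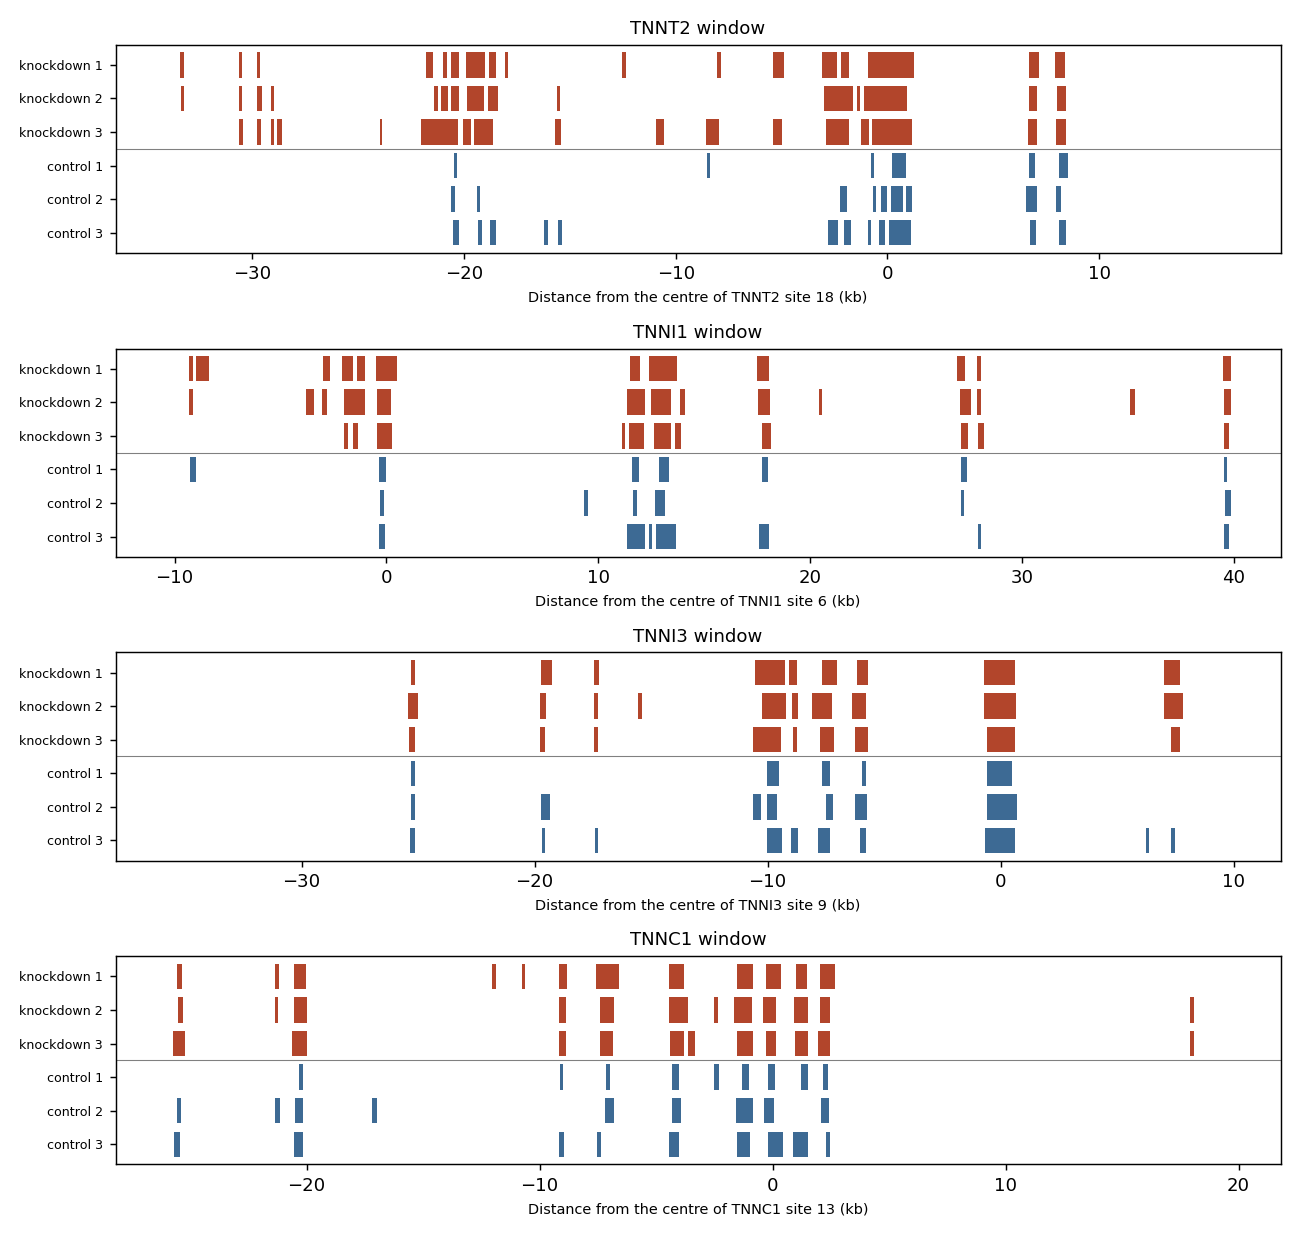
Peaks of each library in the 4 windows, drawn to scale as boxes against distance in kb, with the 3 knockdown libraries above the 3 control libraries. Distance is from the centre of the window's highest ranking site among those called in all 6 libraries. Around TNNT2 site 18 the knockdown libraries have 1 or 2 wide peaks where the control libraries have 2 to 4 narrower ones.

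Around TNNT2, the anchor of the complex, 1 site ranked well above the others. It is TNNT2 site 18 (sites are numbered along the chromosome within each window), at chr1:201345181-201347707. Its best peak had a score percentile within its list of 97.8, 95.7 and 98.2 in the knockdown libraries, against 86.6, 91.1 and 96.0 in the control libraries. The score is the value of the authors' peak caller, and since the lists differ in length these percentiles describe each list and show no change between groups. Peaks at this site covered 2166, 2031 and 2248 bases in knockdown as 1, 1 and 2 peaks, against 790, 1309 and 1467 bases in control as 2, 4 and 3 peaks. Every knockdown value lay above every control value, as at 47.3% of all sites of the genome called in all 6 libraries. The site held 28.1, 27.7 and 23.1% of the window's covered bases in the knockdown libraries, against 45.4, 49.0 and 36.5% in the control libraries. This share was taken only in the troponin windows, so it has no value over the genome beside it. It also depends on the other peaks of the window, which were more numerous in the longer knockdown lists.

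The other sites of the TNNT2 window called in all 6 libraries ranked lower. TNNT2 site 7 (chr1:201324407-201326230) was weak, with percentiles of 34.8, 37.0 and 54.6 in knockdown and 4.71, 8.07 and 45.6 in control. Its peaks covered 839, 902 and 1785 bases in knockdown as 3, 3 and 1 peaks, against 136, 185 and 282 bases in control as 1 peak each. The ratio (5.85) was the highest of the 19 troponin sites called in all libraries. It depends on how many neighbouring peaks each list called within the joined site. TNNT2 sites 19 (chr1:201352990-201353595) and 20 (chr1:201354370-201354949) lie on the side of LAD1. Their covered bases averaged 426 ± 35.6 in knockdown against 355 ± 137 in control for site 19, and 452 ± 7.94 against 305 ± 83.9 for site 20 (SD, n = 3 each), and for site 19 the groups overlapped.

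In the window of TNNI1, the slow and fetal inhibitory subunit, the highest ranking site was at chr1:201377298-201378278 (TNNI1 site 6). The percentiles were 87.8, 89.8 and 85.3 in knockdown and 71.1, 72.0 and 78.6 in control, and the peaks covered 981, 643 and 719 bases in knockdown against 328, 183 and 279 in control. Among sites called in all 6 libraries, a pair of adjoining ones came next, TNNI1 site 9 (chr1:201389134-201390018) and site 10 (chr1:201390175-201391867). At site 9 the percentiles were 87.8, 89.0 and 81.0 in knockdown and 27.7, 28.4 and 73.4 in control, so that control replicate 3 stood near the knockdown libraries and apart from the other control libraries. Its covered bases were 494, 857 and 713 in knockdown and 327, 201 and 885 in control, which overlap. At site 10 the percentiles were 89.6, 81.5 and 79.9 in knockdown and 76.6, 61.9 and 82.6 in control. TNNI1 site 11, called in 3 knockdown and 2 control libraries, had a mean percentile of 80.0 over the lists that held it, against 80.8 for site 6 and 78.7 for site 10.

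TNNI3, the cardiac inhibitory subunit, lay in the window with the fewest sites and the largest share of them called in every library, 5 of 11. The highest ranking site of all 63 was TNNI3 site 9 (chr19:55677264-55678710), with percentiles of 98.7, 99.3 and 98.8 in knockdown and 98.7, 98.2 and 98.8 in control. It lies in the part of the window towards DNAAF3, and whether it belongs to TNNI3 was not determined. It covered 1344, 1369 and 1214 bases in knockdown against 1073, 1315 and 1262 in control, the smallest ratio of the 19 sites called in all libraries (1.08), and the groups overlapped. It held 23.67, 23.02 and 25.83% of the window's covered bases in the knockdown libraries, against 47.6, 38.84 and 33.15% in the control libraries. In the TNNI1 window this share for site 6 overlapped, at 15.57, 10.06 and 16.31% in knockdown against 15.47, 12.59 and 9.22% in control. In the TNNC1 window it was 11.96, 11.24 and 8.40% for site 13 in knockdown against 14.5, 12.95 and 18.57% in control. TNNI3 site 5 (chr19:55667381-55668778) came next, with percentiles of 95.3, 92.2 and 89.0 in knockdown and 91.5, 95.1 and 92.5 in control. Its peaks covered 1308, 1033 and 1176 bases in knockdown against 513, 759 and 656 in control. The knockdown values lay above control, as at 47.3% of all sites called in all 6 libraries. TNNI3 site 1 (chr19:55652573-55652973) lies towards TNNT1 and had percentiles of 91.1, 90.9 and 83.8 in knockdown and 80.7, 78.5 and 84.7 in control.

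The window of TNNC1, the calcium-binding subunit, held the most sites called in all 6 libraries, 6 of 16. They spanned 22.6 kb between the centres of the first and the last. None ranked as high as the leading sites of the TNNT2 and TNNI3 windows. TNNC1 site 13 (chr3:52487771-52488627) had percentiles of 91.1, 86.6 and 74.7 in knockdown and 56.3, 76.7 and 75.3 in control. TNNC1 site 7 (chr3:52479023-52479364), called in 3 knockdown and 2 control libraries, had a mean percentile of 79.9 over the lists that held it. That of site 13 was 76.8. TNNC1 site 12 (chr3:52486565-52487365) had 87.8, 81.5 and 81.0 in knockdown and 56.3, 61.9 and 75.3 in control. TNNC1 site 3 (chr3:52467581-52468238) had 83.6, 89.0 and 87.9 in knockdown and 60.1, 28.4 and 71.3 in control. Its covered bases of 513, 554 and 658 in knockdown lay above the 178, 323 and 368 in control. Such a separation was found at 47.3% of all sites called in all 6 libraries.

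**Figure D3:**
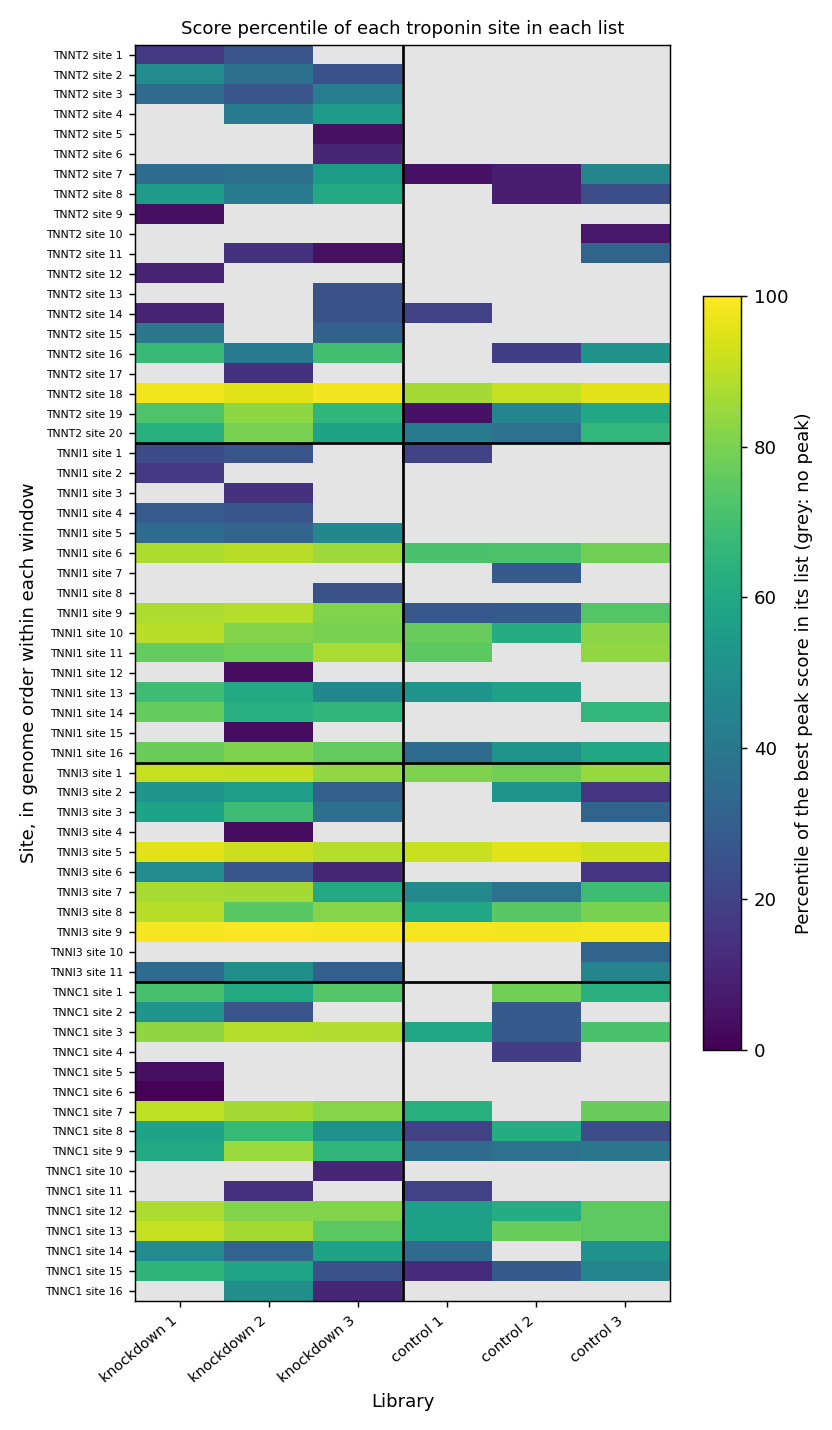
Score percentile within its own list of the best peak at each of the 63 troponin sites (rows, in genome order within each window) in the 3 knockdown and 3 control libraries (columns), grey where no peak was called. The rows with the highest mean percentiles, TNNI3 site 9 and TNNT2 site 18, were called in all 6 libraries. Other sites called in all 6 are weak, such as TNNT2 site 7. Most grey cells are in the control columns.

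Of the 63 troponin sites, 19 (30.2%) were called in all 6 libraries, against 18.2% of all sites of the genome. All 3 knockdown libraries and no control library called 3 sites (4.76%), against 7.72% of all sites. All 3 control libraries and no knockdown library called 0 sites, against 0.131% of all sites. All 19 sites called in the 3 control libraries were also called in the 3 knockdown libraries, as were 95.4% of such sites over the genome. A further 20 sites (31.7%) were called in 1 or 2 knockdown libraries only, against 39.9% of all sites, and 4 (6.35%) in 1 or 2 control libraries only, against 10.6% of all sites. No control peak was called at 11 of 20 sites in the TNNT2 window, 7 of 16 in the TNNI1 window, 1 of 11 in the TNNI3 window and 4 of 16 in the TNNC1 window, against 47.7% of all sites.

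The 3 sites called only in knockdown were in the windows of TNNT2 and TNNI1. TNNT2 site 2 (chr1:201315821-201316008) had percentiles of 48.4, 37.0 and 24.7 in the knockdown libraries and no peak in control. TNNT2 site 3 (chr1:201316691-201316900) had 34.8, 26.4 and 42.3 in knockdown and no peak in control. Both were narrow and lay 9.40 and 8.52 kb from the nearest site called in all libraries, on the side of PKP1. TNNI1 site 5 (chr1:201375703-201376791) had 34.8, 31.9 and 46.9 in knockdown and no peak in control, and lay 1.54 kb from TNNI1 site 6. No site without a control peak had a percentile above 54.55 in any knockdown list, and with lists of equal length 0 of 41 troponin sites were called only in knockdown, against 3.04% of all sites. Without control replicate 3 there were 7 of 61 (13.5% of all sites), without knockdown replicate 1 there were 5 of 58 (10.6% of all sites) and without knockdown replicate 3 there were 6 of 64 (15.6% of all sites).

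The 19 sites called in all 6 libraries were compared in their covered bases, a comparison added after the data were seen, in limma over all 28666 such sites of chromosomes 1 to 22 and X. Of the 19, 6 rose in knockdown at an adjusted p under 0.05 and 0 fell, against 12.7% of all such sites that rose and 0.143% that fell. The median change of the 19 was 0.88 on the log2 scale, and that of all such sites 0.47. In 11 of the 19 every knockdown value lay above every control value, against 47.3% of all such sites. By window, 2 of 4 sites rose for TNNT2, 1 of 4 for TNNI1, 1 of 5 for TNNI3 and 2 of 6 for TNNC1.

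The sites that rose included the leading ones of the TNNT2 and TNNI1 windows. TNNT2 site 18 changed by 0.90 (SE 0.22, limma adjusted p = 0.0408) and TNNT2 site 7 by 2.52 (SE 0.38, limma adjusted p = 0.02). TNNI1 site 6 changed by 1.59 (SE 0.30, limma adjusted p = 0.0264). TNNI3 site 5 changed by 0.88 (SE 0.19, limma adjusted p = 0.0328), whereas the change of 0.11 at TNNI3 site 9 did not pass (SE 0.13, limma adjusted p = 0.512). The sites of the TNNC1 window that rose were site 8 (chr3:52480624-52481610), by 1.59 (SE 0.41, limma adjusted p = 0.0459), and site 15 (chr3:52490157-52490878), by 1.29 (SE 0.35, limma adjusted p = 0.0497). Neither was assigned to a gene. Site 8 covered 987, 573 and 567 bases in knockdown against 165, 411 and 172 in control, and site 15 covered 652, 441 and 525 in knockdown against 183, 354 and 159 in control. Neither is among the 3 highest ranking sites of that window called in all 6 libraries. The changes at the 13 sites that did not pass lay between 0.11 and 1.05.

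Sites of the whole genome were wider in knockdown as well, by the median of 0.47 given above. With each library centred to its median over all such sites, 0 of the 19 passed in limma, 4 of 19 had an unadjusted p under 0.05 (19.1% of all such sites), and 0.0105% of all sites were called. Centred changes were 1.98 for TNNT2 site 7 (limma adjusted p = 0.0674), 0.36 for TNNT2 site 18, 1.04 for TNNI1 site 6 and 0.33 for TNNI3 site 5. In limma without knockdown replicate 1, 2 or 3, 0 of 19 passed in each fit, as did almost no site of the genome (0.0, 0.00346 and 0.0% called). At an unadjusted p under 0.05 these fits held 10, 9 and 9 of the 19, against 25.1, 29.1 and 32.2% of all sites. Without control replicate 1, 3 of 23 sites passed, against 4.33% of all sites. The counts were 5 of 22, against 3.95% of all sites, without control replicate 2, and 9 of 20, against 23.1%, without control replicate 3.

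**Figure D4:**
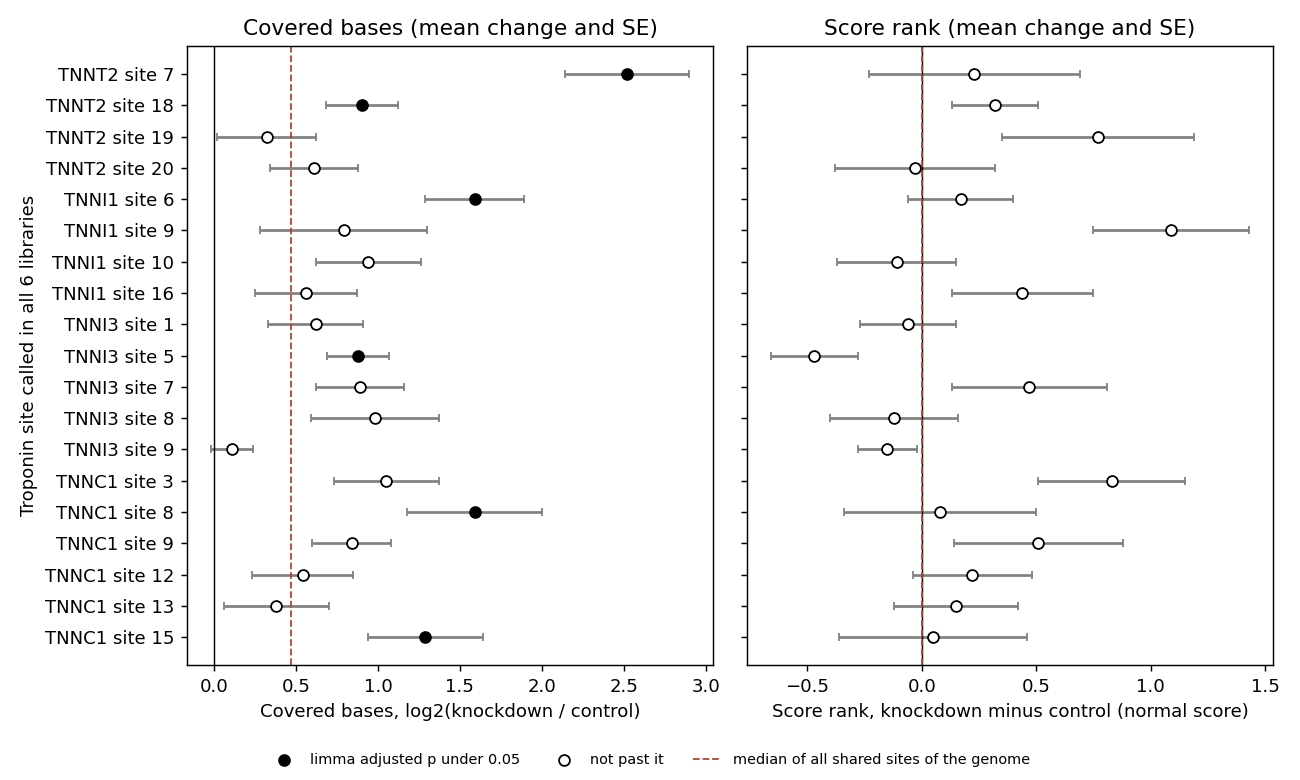
Change at the 19 troponin sites called in all 6 libraries, knockdown against control, in covered bases (left, log2) and in score rank among all such sites of the genome (right, normal score), as the limma estimate with its SE. Filled points have an adjusted p under 0.05, before centring, and the dashed line is the median of all such sites, which is 0.47 for covered bases and 0.00 for rank.

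Ranks of scores over the same sites in each list can be set side by side, and by this measure no troponin site passed the test. Each of the 28666 sites called in all libraries was ranked by its best score within each library, and the ranks were turned into normal scores. Of the 19 troponin sites, 0 passed an adjusted p of 0.05 in limma, against 5.03% of all such sites (2.26% higher and 2.77% lower in knockdown), and 3 had an unadjusted p under 0.05, against 19.4%. The median change was 0.17, with 13 of 19 changes above 0, and the median of all such sites was 0.00.

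The 3 sites with an unadjusted p under 0.05 lay in the windows of TNNI1, TNNC1 and TNNI3. TNNI1 site 9 stood at percentiles of 53.3, 61.7 and 46.6 among the shared sites in knockdown against 8.71, 7.72 and 42.2 in control, a change of 1.09 (SE 0.34, limma adjusted p = 0.0638). Control replicate 3 was again close to knockdown, and without it the change was 1.46 (limma adjusted p = 0.00482). Leaving out any other library, the site did not pass. Without control replicate 1 or 2 the change was 0.85 or 0.82 (limma adjusted p = 0.1868 and 0.1935). Without knockdown replicate 1, 2 or 3 it was 1.1, 0.99 or 1.18 (limma adjusted p = 0.2198, 0.2451 and 0.126). The share of all sites passing in these fits is not given here. TNNC1 site 3 stood at 40.8, 61.7 and 64.2 in knockdown against 36.8, 7.72 and 38.6 in control, a change of 0.83 (SE 0.32, limma adjusted p = 0.149). TNNI3 site 5 went the other way, at 81.5, 72.5 and 67.3 in knockdown against 85.4, 91.2 and 82.7 in control, a change of -0.47 (SE 0.19, limma adjusted p = 0.16). At this site covered bases were higher in knockdown, by 0.88 on the log2 scale before centring and 0.33 after it (limma adjusted p = 0.379). Ranks hold no shift common to all sites, so only the centred value can be set beside them. The rank by score was lower in each knockdown library than in any control library, a difference that did not pass the threshold. The share of all sites with such a separation in rank is not given here. TNNT2 site 18 stood at 91.3, 84.9 and 94.8 in knockdown against 77.0, 84.0 and 90.8 in control, which overlap (0.32, SE 0.19, limma adjusted p = 0.364).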

How the data were processed

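The deposited files were 1 peak list per library for 6 ATAC-seq libraries, 3 with ZNF436 knockdown and 3 controls. The authors' score in these deposited lists is a whole number per peak, and it served here only for ranking inside one list. Per the submitters' processing notes, hg19, Bowtie2 2.4.5 and bedtools 2.30.0 were used. Peak names begin with MACS and carry 1 library's name. The roles of these tools, and the caller's version, threshold, Tn5 shift and duplicate removal, were not given in the sources used here. Any such setting can move the number and width of peaks.

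The members, lists and tests were chosen with earlier results of these data known, and the comparison of covered bases per site was added after these values were seen. A site belonged to a window by its midpoint and was called in a library where a peak overlapped it. Values were given for every window, the 3 highest ranking sites per window called in all libraries, sites called in 1 group only and sites past the threshold. Tests were exact permutation tests and limma 3.58.1 in R 4.3.3 with trended, robust variance and Benjamini-Hochberg adjustment over all rows (threshold 0.05), checked on simulated data. Tiles of 50 kb entered with a mean of at least 2 peaks. Other steps used Python 3.11.15, pandas 2.3.3 and numpy 2.4.6. Alternatives were equal lists, the stronger 50% of each list, other scalings, pseudocounts, filters, tiles, overlaps and merging, a replicate block and leaving out each library.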

Additional observations from a re-analysis of the deposited data

How the results depend on the processing

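Depth is unknown and limits every count. With equal lists the ratio of peaks was 0.583 for TNNT2, 0.9 for TNNI3, 0.962 for TNNC1 and 0.878 for all 4 windows, below 1 in each, and the log2 change in share of TNNT2 was -0.77. The ratios of covered bases stayed above 1 in every setting run, which does not set the windows apart from the genome. Covered bases of the whole lists had a ratio of 1.852, and of 1.384 with equal lists. The median ratio over the 50 kb tiles was 1.906. Without scaling, the log2 change in share was 0.87 for TNNT2 and 0.84 for TNNI1, past the threshold, and 0.38 for TNNI3 and 0.36 for TNNC1. That of TNNI1 was -0.03 with a pseudocount of 1 and -0.30 with the stronger 50% of each list. With 1 library left out it ran from -0.09 to 0.13 for TNNI1 and from -0.12 to 0.14 for TNNT2. Both are near 0 and neither passed.

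Sites called in all 6 libraries numbered 9 of 31 with the stronger 50% of each list (27.1% of all sites), against 19 of 63 as reported (18.2%). Sites called only in knockdown, 3 as reported, numbered 8 of 63 when 2 of 3 libraries sufficed (19.2% of all sites), 0 of 41 with equal lists (3.04%), 1 of 31 with the stronger 50% (9.53%) and 3 to 7 with 1 library left out (9.04 to 15.6%). Sites whose covered bases rose, 6 as reported, numbered 0 when centred, 3 of 16 with equal lists (9.98% of all sites called, either direction), 3 of 9 with the stronger 50% (9.02%) and 0 to 9 with 1 library left out (0.0 to 23.1%). Centring lowers every change by 0.54, and fewer sites are tested in shorter lists. The cause was otherwise not tested. Sites whose rank rose, 0 as reported (2.26% of all such sites), numbered 0 to 1 with 1 library left out. The share of all sites whose rank rose in those fits is not given here, so the 1 cannot be set against it.

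Changes that did not pass also turned sign. For covered bases, centring gave -0.22 at TNNT2 site 19, -0.44 at TNNI3 site 9, -0.00 at TNNC1 site 12 and -0.16 at TNNC1 site 13. For rank, TNNT2 site 7 had -0.03 by the mean score and TNNC1 site 8 had -3.31 percentile points. With 1 library left out, rank changes ran from -0.06 to 0.65 for TNNT2 site 7, -0.29 to 0.16 for TNNT2 site 20, -0.14 to 0.06 for TNNI3 site 1, -0.30 to 0.12 for TNNI3 site 8, -0.20 to 0.50 for TNNC1 site 8, -0.03 to 0.37 for TNNC1 site 13 and -0.22 to 0.35 for TNNC1 site 15.

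With the replicate number as a block, 0 of 19 sites rose in covered bases in limma (11 at an unadjusted p under 0.05). Of all sites, 0.0% were called in covered bases and 36.9% had an unadjusted p under 0.05. In rank, with the same block, 1 of 19 rose, TNNI1 site 9 (limma adjusted p = 0.0407). The share of all sites whose rank rose in that fit is not given here. The ratios of peaks were 1.884 for TNNT2, 1.846 for TNNI1, 1.323 for TNNI3 and 1.295 for TNNC1. Deviations from the group mean had r = -0.0218, 0.0353 and 0.00293 between same-numbered knockdown and control libraries. Replicates 1 and 3 of both groups had a higher r with another number, and the numbers were not taken as pairs.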
